A study of Mus musculus with 4 samples.

Results

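The C/EBP transcription factors were followed in RNA that came down with CUGBP1 from mouse myoblasts. The members were 6 genes of that name, *Cebpa*, *Cebpb*, *Cebpd*, *Cebpe*, *Cebpg* and *Cebpz*, and were taken by annotation alone, as probe sets that name exactly 1 of these genes. Such a probe set was found for 5 of them, 1 each, among 21044 probe sets that name 1 gene, and *Cebpz* was not analysed here. The cells were proliferating C2C12 (LKO1) cells, a mouse myoblast line that stably carries an empty lentiviral vector and is kept in puromycin. Cytoplasmic lysate was immunoprecipitated with the 3B1 monoclonal antibody to CUGBP1 (CUGBP1 IP) or, as a negative control, with normal IgG (control IgG), and the RNA of each precipitate was hybridized to 1 Affymetrix Mouse Gene 1.0 ST array. Each group had 2 arrays. The study looked for messages bound by CUGBP1 in muscle cells, and this comparison gives the amount of each C/EBP transcript in the CUGBP1 IP relative to control IgG, not its amount in the cell.

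C/EBP proteins are basic leucine zipper (bZIP) transcription factors that bind DNA as dimers and control differentiation of adipocytes, hepatocytes and granulocytes, as well as the acute phase response. C/EBP-beta is made as longer activating and shorter inhibitory forms from different start codons of 1 messenger RNA, and in muscle precursors it is known to favour the undifferentiated state. The *Celf1* gene encodes CUGBP1, which binds GU-rich stretches of RNA and recruits deadenylases, and which is a known translational regulator of the *Cebpb* message. *Cebpz* shares the name but encodes a protein without a bZIP domain that takes part in ribosome biogenesis.

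Values are linear intensities divided by the 5th percentile of the same array, so a probe set with no transcript reads about 1. Olfactory and vomeronasal receptors, which myoblasts are not expected to express, served as background (1203 probe sets). Their 95th percentile was 1.23 and 1.29 after CUGBP1 IP and 1.09 and 1.16 after control IgG. The 2 control IgG arrays differed at their bright end, with a 95th percentile over the whole table of 2.36 for replicate 1 and 5.96 for replicate 2, and ratios are therefore also given against each of them. Of 9 measured myoblast markers, 8 were above background on all 4 arrays, and the determination factor *Myod1* read 18.8 and 23.2 after CUGBP1 IP against 1.77 and 3.30 after control IgG. Of 10 granulocyte and macrophage genes that C/EBP proteins are known to control, 0 were above background on all 4 arrays.

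*Cebpb*, *Cebpg* and *Cebpa* were above background on all 4 arrays (3 of 5 members, against 36.7% of all tested probe sets). *Cebpd* and *Cebpe* lay close to background. All 5 read higher on both CUGBP1 IP arrays than on both control IgG arrays, as did 66.3% of all tested probe sets. Among probe sets above background on all 4 arrays this share was 78%. None of the 5 passed the test, which did not pair arrays by replicate number. *Cebpb* (probe set 10478890) read 4.71 and 5.85 after CUGBP1 IP, against 1.47 and 2.91 after control IgG. The groups did not overlap, and the lower of the control values was that of replicate 1. The signal-to-negative ratio, which divides the CUGBP1 IP mean by the control IgG mean, was 2.41. It was 3.59 against control IgG replicate 1 alone and 1.81 against replicate 2 alone. The log2 difference was 1.34 (SE 0.69, 95% interval -0.00384 to 2.69), and limma gave an adjusted p of 0.172 (0.0507 unadjusted).

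*Cebpg* (probe set 10562416) encodes a small bZIP protein without an activation domain that acts through heterodimers with other bZIP factors. It read 4.26 and 4.59 after CUGBP1 IP and 1.27 and 2.45 after control IgG, so the 2 CUGBP1 IP arrays lay closer together than the 2 control arrays. The ratio was 2.38, with 3.48 against control IgG replicate 1 and 1.81 against replicate 2. Its log2 difference was 1.33 (SE 0.58, 95% interval 0.183 to 2.47, limma adjusted p = 0.139).

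*Cebpa* (probe set 10552140) encodes C/EBP-alpha, which drives adipocyte and granulocyte differentiation and restrains proliferation. It read 2.26 and 2.53 after CUGBP1 IP and 1.19 and 1.69 after control IgG. The groups again did not overlap, but the ratio was smaller, at 1.66 (2.01 against control IgG replicate 1 and 1.42 against replicate 2). The log2 difference was 0.75 (SE 0.35, 95% interval 0.065 to 1.44, limma adjusted p = 0.151).

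*Cebpd* (probe set 10433885) encodes an acute phase and early adipogenic factor. Its values were 1.26 and 1.15 after CUGBP1 IP and 1.03 and 1.06 after control IgG, and only CUGBP1 IP replicate 1 was above background. *Cebpe* (probe set 10419850), a factor of late granulocyte differentiation, read 1.24 and 1.26 after CUGBP1 IP and 1.06 and 1.13 after control IgG, with again only CUGBP1 IP replicate 1 above background. Their ratios were 1.15 and 1.14, with limma adjusted p-values of 0.163 and 0.248. At this signal no association of either transcript with CUGBP1 was detectable.

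**Figure D1:**
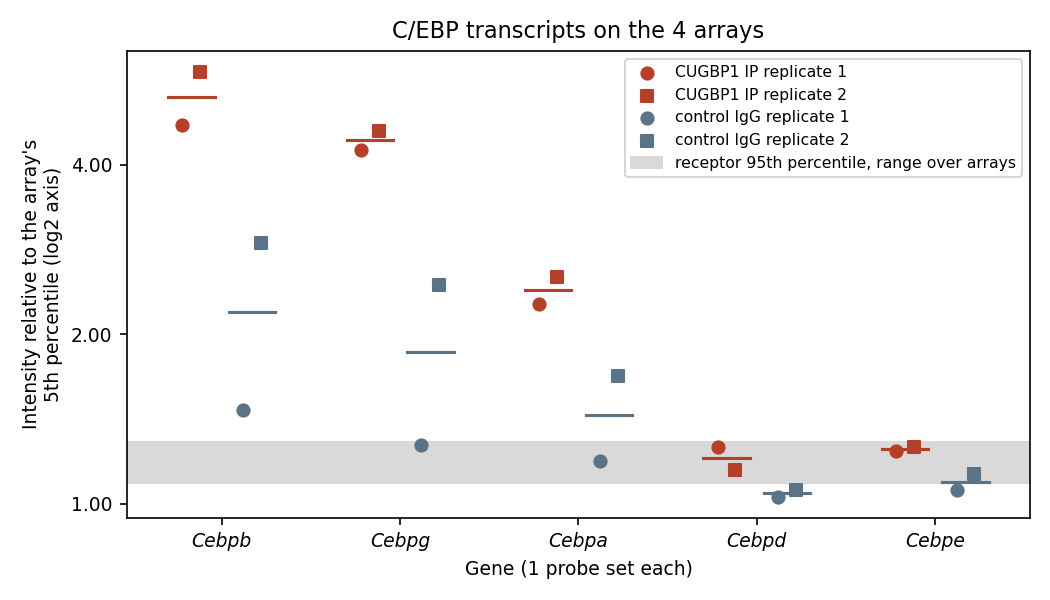
Intensity in units of each array's 5th percentile (log2 axis) of the 5 C/EBP probe sets, with 1 point per array, lines at the means of 2 arrays, and a grey band over the 95th percentiles of the receptor probe sets (1.09 to 1.29). For each gene both CUGBP1 IP points lie above both control IgG points, as for 66.3% of all tested probe sets. Control IgG replicate 1 is below replicate 2 for each gene.

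limma called 0 of the 5 members higher and 0 lower at an adjusted p under 0.05, where it called 1.95% of all tested probe sets higher and 0.138% lower. At an unadjusted p under 0.05, 3 of the 5 members were higher (*Cebpa*, *Cebpd* and *Cebpg*), against 28.6% of all tested probe sets. Of the 5 members, 5 read higher on each CUGBP1 IP array than on either control IgG array, as did 66.3% of all tested probe sets. With arrays scaled to equal medians this still held for *Cebpa*, *Cebpb* and *Cebpg*, while *Cebpd* and *Cebpe* had negative differences of -0.08 and -0.1. The share of all tested probe sets for which it held after this scaling was not counted. None of the 5 was in the top 5% of ratios over the tested probe sets, which began at a ratio of 2.57 and by construction held 5% of them. The study also took a top share of ratios as associated, but over its own selection of transcripts, so its set and its limit are not those used here. *Cebpb* was at percentile 93.9, and between 84.1 and 94.0 over the other scalings and with an array left out. *Cebpg* was at percentile 93.6 (92.0 to 94.9) and *Cebpa* at 81.4 (64.5 to 85.1). The dim members were less settled, with *Cebpd* at 39.6 (23.7 when replicate 1 of the CUGBP1 IP was left out, 61.2 when replicate 2 was, and 76.5 with quantile normalization) and *Cebpe* at 37.4 (32.1 to 55.6).

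The members' median log2 difference was 0.75, against 0.29 over all tested probe sets. Relative to that 0.29, *Cebpb* was 1.05 and *Cebpg* 1.04 higher, *Cebpa* was 0.46 higher, and *Cebpd* and *Cebpe* were at -0.08 and -0.1. The 95% intervals of all 5 members include 0.29. The 2 members with the smallest ratios were the 2 near background, and dividing by the floor without subtracting it pulls the ratio of a dim probe set towards 1. Whether this accounts for their ratios was not tested. On all 4 arrays 7727 probe sets were above background, and their median ratio was 1.61, and in 78% of them each CUGBP1 IP array was above either control IgG array. An unadjusted p under 0.05, with higher signal after CUGBP1 IP, was reached by 34.4% of them and by *Cebpa* and *Cebpg* of the 3 members there. There *Cebpa*, with 1.66, exceeded 54.9% of them, while *Cebpb* was above 84.6% and *Cebpg* above 84.0%. Quantile normalization, which forces the arrays to 1 common distribution, brought *Cebpb* to 0.15, *Cebpg* to 0.31 and *Cebpa* to 0.05 relative to all probe sets.

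**Figure D2:**
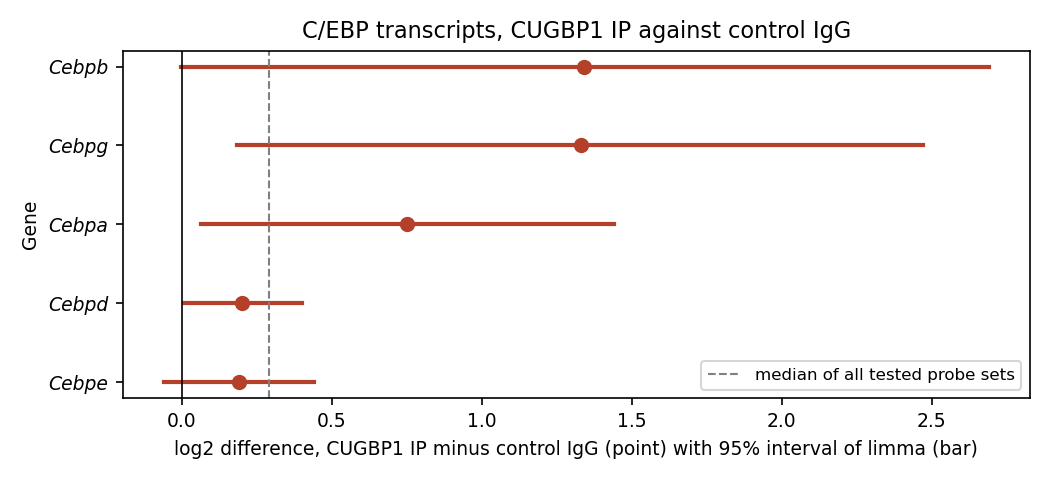
Log2 difference of CUGBP1 IP minus control IgG for each C/EBP gene, with the 95% interval of limma and a dashed line at the median of all tested probe sets (0.29). The intervals of *Cebpb* (-0.00384 to 2.69) and *Cebpg* (0.183 to 2.47) overlap over most of their length, and all 5 intervals include the dashed line.

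**Figure D3:**
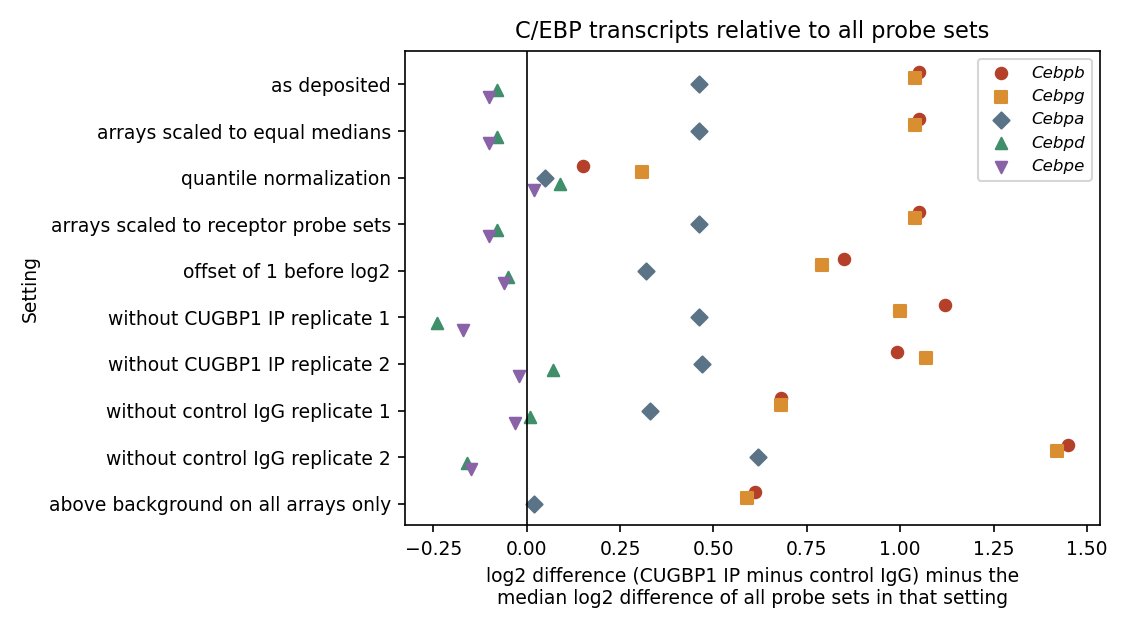
Log2 difference (CUGBP1 IP minus control IgG) of each C/EBP gene relative to the median of all probe sets, by processing setting. *Cebpb* and *Cebpg* are at 1.05 and 1.04 as deposited, and at 0.15 and 0.31 with quantile normalization.

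The members were next compared with each other through the log2 ratio of each pair within an array, which removes any factor common to the whole array. Between *Cebpb* and *Cebpg* this ratio was 0.14 and 0.35 after CUGBP1 IP and 0.21 and 0.25 after control IgG. The control values lay between the CUGBP1 IP values, and the log2 differences of these 2 genes differed by 0.02. *Cebpd* and *Cebpe* likewise overlapped, with a difference of 0.01. For *Cebpb* and *Cebpa* the ratio was 1.06 and 1.21 after CUGBP1 IP and 0.3 and 0.78 after control IgG, a difference of 0.59. Over the 10 pairs the lowest exact two-sided permutation p was 0.333, the smallest that 2 against 2 arrays can give (0.417 adjusted over the 10 pairs), so no pair can be told apart by this test. The pairs share members, and 7 of the 10 include a probe set near background.

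By the likeness of the 4 log2 values, each centred on its own mean, the genes nearest to *Cebpb* by Euclidean distance were *Rcan1*, an inhibitor of calcineurin, at 0.0373, *Akt1s1*, which encodes a subunit of mTOR complex 1, at 0.0389, and *Ly6e* at 0.0431. They were followed by the kinase gene *Pskh1* at 0.0533 and the exonuclease gene *Eri3* at 0.0541. *Rcan1* read 3.87 and 4.90 after CUGBP1 IP and 1.19 and 2.42 after control IgG. *Cebpg* was at a distance of 0.148, and 59 probe sets were at least as near as that. With 4 arrays many probe sets are alike, and 1517 lay within 0.5 of *Cebpb*.

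The dimerization partners of C/EBP proteins were a mixed group. Of 13 bZIP partner genes, all measured, 0 were called, 7 were higher at an unadjusted p under 0.05 and 3 were in the top 5%. The shares of all tested probe sets beside which these and the later list counts stand are 1.95% called higher, 28.6% at an unadjusted p under 0.05 (34.4% of those above background on all 4 arrays) and 5% in the top share. The top share was not counted among probe sets above background on all 4 arrays. Ratios there were higher, with a median of 1.61 against 1.22 over all tested probe sets. The partners had a median ratio of 1.66 and a range from 1.11 to 7.27. The highest was *Jun*, an AP-1 subunit, with 11.3 and 18.8 after CUGBP1 IP and 1.52 and 2.63 after control IgG (limma adjusted p = 0.0831). The paper already reports the *Jun* message as associated with CUGBP1 in this experiment, and found it enriched by RT-PCR. Its place here is therefore no independent result. The lowest above background on all arrays was *Nfil3*, a bZIP repressor, with 1.69 and 2.91 after CUGBP1 IP against 1.31 and 2.16 after control IgG, groups that overlap. Of the partners of the integrated stress response, picked for that role after their values were seen, *Atf4* had a ratio of 4.45, *Atf5* 1.88, *Ddit3*, which encodes a C/EBP homologous protein, 1.71, and *Atf3* 1.11. *Atf4* read 20.2 and 23.0 after CUGBP1 IP and 2.44 and 7.27 after control IgG. *Atf4*, *Atf5* and *Ddit3* were above background on all 4 arrays, and *Atf3* on 2 of them, with groups that overlap (1.37 and 1.15 after CUGBP1 IP, against 1.19 and 1.09 after control IgG).

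Among other bZIP families the ratios reached further than in the C/EBP family, whose highest was 2.41. Of 20 measured PAR, CREB and Maf factors, *Atf7* rose and 4 were in the top 5%, with a median ratio of 1.59. The 2 probe sets of *Atf7*, an ATF/CREB factor, had ratios of 11.4 and 11.2, and the brighter one read 14.4 and 22.3 after CUGBP1 IP and 1.23 and 2.05 after control IgG (log2 3.5, SE 1.00, limma adjusted p = 0.0372). The lowest above background on all arrays was *Dbp*, a circadian PAR factor, at 1.33. Of 8 AP-1 subunits 0 were called, 6 were higher at an unadjusted p under 0.05 and 3 were in the top 5%, with a median ratio of 1.62. *Jund* had the highest ratio of these (8.65, limma adjusted p = 0.124) and *Fosl1* the lowest above background (1.51). *Jun*, *Fos* and *Atf3* stand in both the partner and the AP-1 lists. The medians of these lists lie close to the 1.66 of the C/EBP family, and no difference between the families was tested.

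Proteins that phosphorylate, degrade or assist C/EBP factors gave no calls. Of 18 measured genes 0 were called, 8 were higher at an unadjusted p under 0.05 and 2 were in the top 5%, with a median ratio of 1.60. The highest was *Trib1*, an adaptor that targets C/EBP-alpha for degradation, with 2.86 and 5.26 after CUGBP1 IP against 1.13 and 1.75 after control IgG (ratio 2.82, limma adjusted p = 0.0644). The lowest above background was the kinase gene *Rps6ka3*, at 1.27. With arrays scaled to equal medians 6 genes of this list were called higher, where 1362 of all 21044 tested probe sets were.

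Factors of the translational control of C/EBP messages had the highest median ratio of the lists, 2.80, and 9 of 17 measured genes were in the top 5%. The paper already describes the messages of *Celf1*, *Elavl1*, *Eif4e*, *Eif4ebp1* and *Calr*, all in this top share, as associated with CUGBP1 in this experiment. Their place in the count is therefore no independent result. limma called 2 of the 17 higher (1.95% of all tested probe sets), and 11 of the 17 were higher at an unadjusted p under 0.05 (28.6% of all, and 34.4% of those above background on all 4 arrays). *Parn*, a deadenylase that CUGBP1 is known to recruit, read 2.80 and 3.06 after CUGBP1 IP and 1.00 and 1.09 after control IgG. Both control values were in background. With the background limits in place of the control values, *Parn* was 2.60-fold higher in the CUGBP1 IP. That value makes no allowance for the spread between arrays. The log2 difference of *Parn* was 1.49, with a limma interval of 0.847 to 2.13 (limma adjusted p = 0.00742). *Celf2*, a relative of *Celf1*, rose at its brighter probe set, with 6.49 and 7.01 after CUGBP1 IP and 1.19 and 1.72 after control IgG (ratio 4.64, limma adjusted p = 0.0392). The ratio of its other probe set, near background, was 1.07. *Eif4e* was counted in the top 5% by its brightest probe set (ratio 3.8), while its other probe sets had ratios of 1.33 and 1.43. *Celf1* itself had ratios of 3.97 and 4.31 at its 2 probe sets, and the dimmer was called (limma adjusted p = 0.103 and 0.0365). The highest ratio was that of *Eif4ebp2*, a repressor of cap-dependent translation, with 28.9 and 49.2 after CUGBP1 IP and 1.97 and 4.94 after control IgG (11.3, limma adjusted p = 0.0922). The lowest above background was the eIF2 kinase gene *Eif2ak4*, at 1.35.

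**Figure D4:**
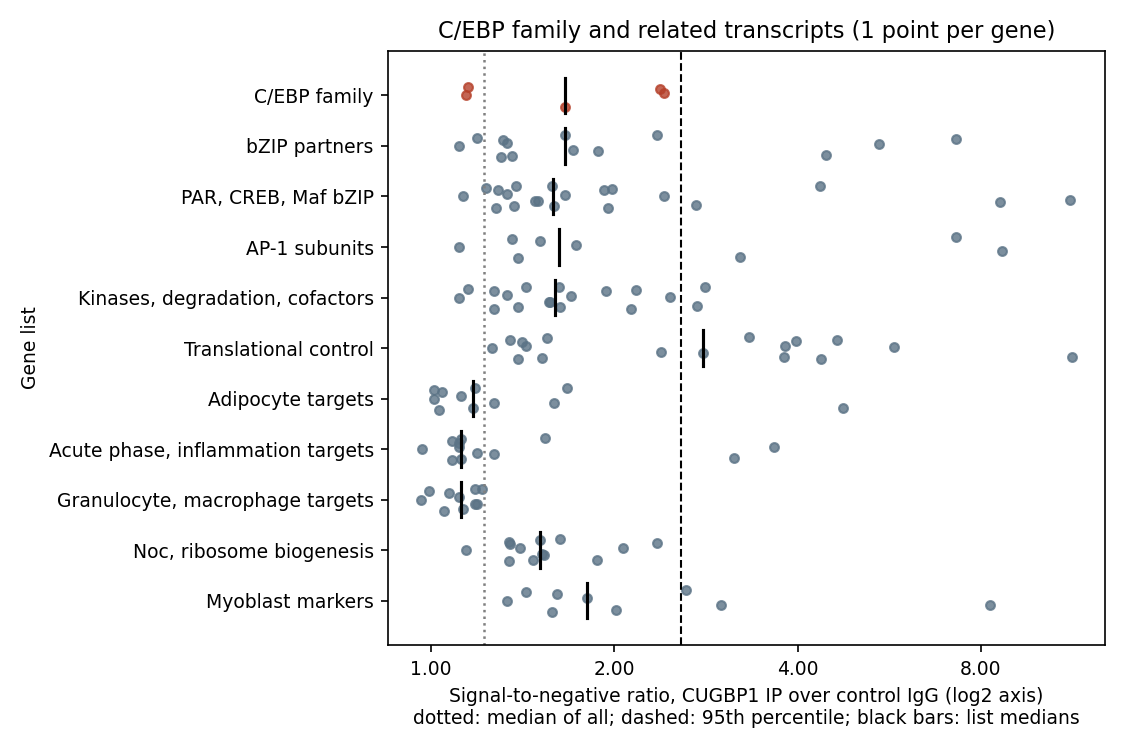
Signal-to-negative ratio (log2 axis) of each measured gene, by its brightest probe set, in the C/EBP family (top row) and 10 related lists, with black bars at list medians, a dotted line at the median of all probe sets (1.22) and a dashed line at the 95th percentile (2.57). All 5 C/EBP genes are left of the dashed line, while 9 of 17 translational control genes are right of it. Some of these 9 were already named by the paper as bound by CUGBP1 in this experiment.

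Most known target genes of C/EBP factors were near background in both precipitates. Of 11 adipocyte targets 0 were called, 1 was higher at an unadjusted p under 0.05, 1 was in the top 5% and 3 were above background on all 4 arrays. The median ratio of the 11 was 1.17. Of the 3 above background on all 4 arrays, *Scd1*, a fatty acid desaturase, had the highest ratio, at 4.74 (limma adjusted p = 0.199). It read 35.8 and 35.2 after CUGBP1 IP and 4.53 and 10.5 after control IgG. *Pparg*, the main adipogenic nuclear receptor, had the lowest ratio of the 3, at 1.59. *Adipoq* and *Fabp4*, defining adipocyte genes, had ratios of 1.03 and 1.04 and were above background on no array of either group. Of 12 acute phase and inflammation targets 0 were called, 5 were higher at an unadjusted p under 0.05, 2 were in the top 5% and 3 were above background on all 4 arrays. The latter were the chemokine genes *Cxcl1* (ratio 3.66, limma adjusted p = 0.0853) and *Ccl2* (1.54), and *Ptgs2* (3.14, limma adjusted p = 0.187). The paper names *Ptgs2* as immunoprecipitated. The granulocyte and macrophage targets had ratios from 0.962 to 1.21 and 0 calls, with 2 at an unadjusted p under 0.05.

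Relatives of *Cebpz* in ribosome biogenesis gave no calls either. Of 13 measured genes 0 were called, 7 were higher at an unadjusted p under 0.05 and 0 were in the top 5%, with a median ratio of 1.51. The highest was *Rrs1*, a large subunit assembly factor, with 3.69 and 4.26 after CUGBP1 IP and 1.66 and 1.72 after control IgG (ratio 2.35, limma adjusted p = 0.138), and the lowest above background was *Nop58*, a box C/D ribonucleoprotein, at 1.34. Of the myoblast markers 0 were called, 7 were higher at an unadjusted p under 0.05 and 3 were in the top 5%. *Myod1* had the highest ratio (8.29, limma adjusted p = 0.0958) and *Pax7*, a satellite cell factor, the lowest above background (1.33). The paper already describes the *Myod1* message as associated with CUGBP1, and reports that it was stabilized in CUGBP1 knockdown cells.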

How the data were processed

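The deposited table holds linear intensities that the authors divided by the 5th percentile of their array. The program that summarised probes is not given in the sources used here. Of 25175 probe sets, 21044 name 1 gene in the platform annotation and were tested, 1492 name several and 2639 none. Symbols of 20959 were taken from a RefSeq gene table by gene identifier. Log2 values, with no offset, were compared with limma 3.58.1 in R 4.3.3 (lmFit, eBayes with an intensity trend, two-sided, Benjamini-Hochberg over all tested probe sets, threshold 0.05). The methods give no test of single transcripts. Lists count 1 probe set per gene, the brightest by the mean of all 4 arrays. That mean includes the CUGBP1 IP arrays, so the choice favours probe sets that are high there. Named from each list were every called gene and the highest and lowest ratio above background on all arrays, and the 5 genes nearest to *Cebpb*. Members, lists and tests were chosen with earlier results of these data known. Nothing says that replicates came from separate cultures, so p-values measure only the spread between these arrays, which may be technical, and their number limits the precision. Alternatives were other scalings, an offset of 1, a background filter, no trend, the replicate block and leaving out each array.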

Additional observations from a re-analysis of the deposited data

How the results depend on the processing

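Of 53 recomputed log2 differences of the 5 C/EBP genes, 45 kept their direction and their side of the threshold. With arrays scaled to equal medians *Cebpd* was at -0.08 and *Cebpe* at -0.1, and with quantile normalization *Cebpe* was -0.0004. All 5 differences were called higher only with the replicate number as a block, where the adjusted p of limma was 0.00896 for *Cebpa*, 0.0143 for *Cebpb*, 0.029 for *Cebpd*, 0.0379 for *Cebpe* and 0.0105 for *Cebpg*. That block raised the calls over all probe sets to 11809 higher (56.1%) and 40 lower. Nothing in the labels says that the numbers pair the samples. Deviations of same-numbered arrays correlated with r = 0.639 across probe sets, which are not replicates. Outside the block the lowest adjusted p of any member was 0.105. With an array left out all 20 differences stayed above 0, with ranges of 0.85 to 1.84 for *Cebpb*, 0.85 to 1.8 for *Cebpg* and 0.5 to 1.01 for *Cebpa*. The median of all probe sets was also above 0 in these fits, at 0.17 to 0.38. Relative to that median *Cebpd* ranged from -0.24 to 0.07 and *Cebpe* from -0.17 to -0.02.

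As deposited, limma called 411 probe sets higher and 29 lower, so 93.4% of the calls were higher. It called 1362 higher with arrays scaled to equal medians, 763 with an offset of 1, 270 with only probe sets above background on all 4 arrays and 0 without the intensity trend. It called 18 lower with quantile normalization, 0 among probe sets above background and 0 without the trend. With an array left out 0 were called in either direction, with 1062 to 6085 at an unadjusted p under 0.05 in fits with 1 residual degree of freedom. The median log2 difference of all probe sets was 0.29 as deposited, 0.0 with equal medians, -0.02 after quantile normalization and 0.27 after scaling to receptor probe sets. Calls summed over the lists, 3 as deposited, were 17 with equal medians and 9 with an offset of 1. The cause was not tested. The count of members in the top 5% was 0 in each setting tried.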

Other observations

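*Cebpzos*, the gene named as the opposite strand of *Cebpz*, has a probe set of its own (10447038) that is no measure of *Cebpz*. It was looked at after the data were examined. It read 1.60 and 2.40 after CUGBP1 IP and 1.28 and 1.66 after control IgG, groups that overlap, with a ratio of 1.36 (limma adjusted p = 0.28).

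In the RefSeq gene table *Cebpg* and *Cebpa* lie on the same chromosome with 2 predicted genes listed between them. Their log2 differences were 1.33 and 0.75. The within-array ratio of *Cebpg* to *Cebpa* was 0.91 and 0.86 on the log2 scale after CUGBP1 IP and 0.09 and 0.54 after control IgG. The groups did not overlap (exact two-sided permutation p = 0.333, the smallest that 2 against 2 arrays can give).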
